A study of Mus musculus with 12 samples.

Results

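The integrated stress response and the unfolded protein response were followed through 41 of their genes, chosen by symbol from the 14909 rows of the deposited count table. They fall into 4 sensors, 24 genes of the ATF4 arm and 13 genes of the ATF6 and XBP1 arms, and all 41 had a row. The libraries came from frontal cortex of C57BL/6 mice, 5 labelled as knockout for Upf3b (KO 1, 2, 3, 4 and 6) and 7 as wild type (WT 1 to 7), 1 library per mouse by the sample titles. The protein of Upf3b, an X-linked gene, acts in NMD, the nonsense-mediated decay of transcripts whose stop codon comes too early. The question was whether stress response genes differ in the cortex of mice that lack it. The sources used here do not state the kind of allele, the sex or the age of the mice.

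In the integrated stress response, kinases that sense amino acid shortage, endoplasmic reticulum (ER) stress, viral RNA or haem shortage phosphorylate the translation factor eIF2. General translation then falls, while the mRNA of the transcription factor ATF4 is translated more, and ATF4 raises genes of amino acid synthesis and transport. The unfolded protein response is the answer of the ER to misfolded protein: PERK feeds into ATF4, IRE1 splices the Xbp1 mRNA, and ATF6 is cut from the ER membrane. XBP1 and ATF6 then raise chaperones and degradation factors of the ER. NMD touches both, since several of their transcripts, such as those of Atf4, Ddit3 and Ern1, have been reported as NMD substrates in cultured mammalian cells. Counts per gene measure neither eIF2 phosphorylation, nor Xbp1 splicing, nor translation.

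Some promoters of the ER arms carry a DNA element that ATF6 is known to act through, and these sequences are shown so that the members that hold it can be followed below. RefSeq promoter windows (GRCm38.p6, the build behind mm10, 250 bases before to 50 after a gene's start) were given for 36 members. The ER stress element (ERSE), bound by ATF6 together with NF-Y, was searched on both strands as CCAAT and CCACG with 9 bases between them. It was found in 0.119% of all 32851 promoter windows and in 5 of 12 members of the ATF6 and XBP1 arms that had a window, but in 0 of 21 of the ATF4 arm and 0 of 3 sensors. A related element, ERSE-II (ATTGG and CCACG with 1 base between them), was in 0.0365% of all windows and in that of Herpud1. Each line gives the gene's own strand, with the fixed letters of the element in capitals.
Hspa5, chr2:34772020-34772048, plus strand: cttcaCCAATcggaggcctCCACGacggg
Dnajc3, chr14:118937822-118937850, plus strand: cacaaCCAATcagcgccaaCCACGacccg
Hsp90b1, chr10:86705633-86705661, minus strand: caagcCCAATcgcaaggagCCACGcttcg
Hsp90b1, chr10:86705528-86705556, minus strand, element on the opposite strand: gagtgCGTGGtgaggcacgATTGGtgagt
Calr, chr8:84847070-84847098, minus strand, element on the opposite strand: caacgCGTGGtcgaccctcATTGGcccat
Creld2, chr15:88819515-88819543, plus strand, element on the opposite strand: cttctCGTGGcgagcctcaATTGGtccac
Herpud1, chr8:94386368-94386396, plus strand, ERSE-II: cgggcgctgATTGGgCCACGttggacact

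The ATF4 arm has its own element, the C/EBP-ATF response element, searched as TGATGNAA on both strands. These letters are short and were in 3.97% of all windows, and they were in 6 of the 21 members of the ATF4 arm that had a window and in Herpud1. The 5 members of the ATF4 arm with a match before the start are shown. Another element, TGACGTGG, which XBP1 binds, was in 0.676% of all windows and in none of the 36 members'. A match is a description of these letters, not evidence of binding.
Asns, chr6:7693214-7693243, minus strand: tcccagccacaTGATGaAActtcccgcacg
Slc7a11, chr3:50443661-50443690, minus strand: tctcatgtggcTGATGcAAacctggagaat
Chac1, chr2:119351038-119351067, plus strand, element on the opposite strand: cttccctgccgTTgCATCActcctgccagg
Atf3, chr1:191183425-191183454, minus strand, element on the opposite strand: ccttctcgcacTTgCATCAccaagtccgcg
Nupr1, chr7:126625562-126625591, minus strand, element on the opposite strand: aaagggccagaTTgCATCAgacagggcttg

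Library totals ran from 4990643 to 6617759 counts in KO and from 4684039 to 5425774 in WT, and 4 of the 5 KO totals lay above every WT total. Upf3b itself had 11 to 24 counts in the KO libraries and 157 to 219 in the WT libraries (2.76 ± 0.877 CPM in KO and 38.3 ± 2.48 CPM in WT, SD, where CPM is counts per 1e+06 counts of scaled library size, exact two-sided permutation p = 0.00253, the smallest the 792 arrangements allow). All 12 neuronal markers, the cortical excitatory marker Slc17a7 included, were counted in every library. Fold changes followed how densely a gene was counted. When tested genes were put into 10 equal bins by counts per base of exon, the bin medians of the log2 fold change ran from 0.246 (lowest density) to -0.182 (highest). Fold changes also followed exon length. In 10 equal bins by length the medians ran from -0.120 (shortest) to 0.152 (longest), and the share called higher from 4.71% to 31.1%. Members past the threshold are therefore set beside a second fit, called density offsets, that removes the density trend within each library. For some genes a fit with offsets for density and length together is also given.

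The stress response genes past the threshold went both ways. Of the 40 members with enough counts to be tested, 4 rose and 6 fell in KO by edgeR's quasi-likelihood test at an adjusted p under 0.05 over all genes. Across all 14274 tested genes 15.3% were called higher and 14.4% lower, so the 4 and 6 of 40 are near the background. The median log2 fold change was -0.038 over the members, against 0.034 over all tested genes. The members that rose were the sensors Ern1 and Eif2ak4, the transcription factor gene Ddit3 and the folate enzyme gene Aldh1l2. Those that fell were Asns, Psat1 and Cebpg in the ATF4 arm and Hsp90b1, Calr and Dnajb9 in the ER arms. With density offsets 5 members were higher and 2 lower, against 8.38% and 8.17% of all genes, and the 4 risers were among the 5 but only Cebpg of the 6 lower genes was called. With offsets for density and length together, chosen after seeing the data, 6 were higher and 3 lower, against 7.89% and 8.62% of all genes. DESeq2 called 3 higher and 5 lower (11.3% and 14.7% of all genes), and limma-voom 4 and 6 (16.0% and 14.8%). Once each library's total, larger in most KO libraries, entered the model as a covariate, 0 members passed in edgeR (2 higher and 1 lower at an unadjusted p under 0.05). Of all genes 0.588% were then higher and 0.0771% lower, so depth and genotype cannot be told apart in these calls.

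**Figure D1:**
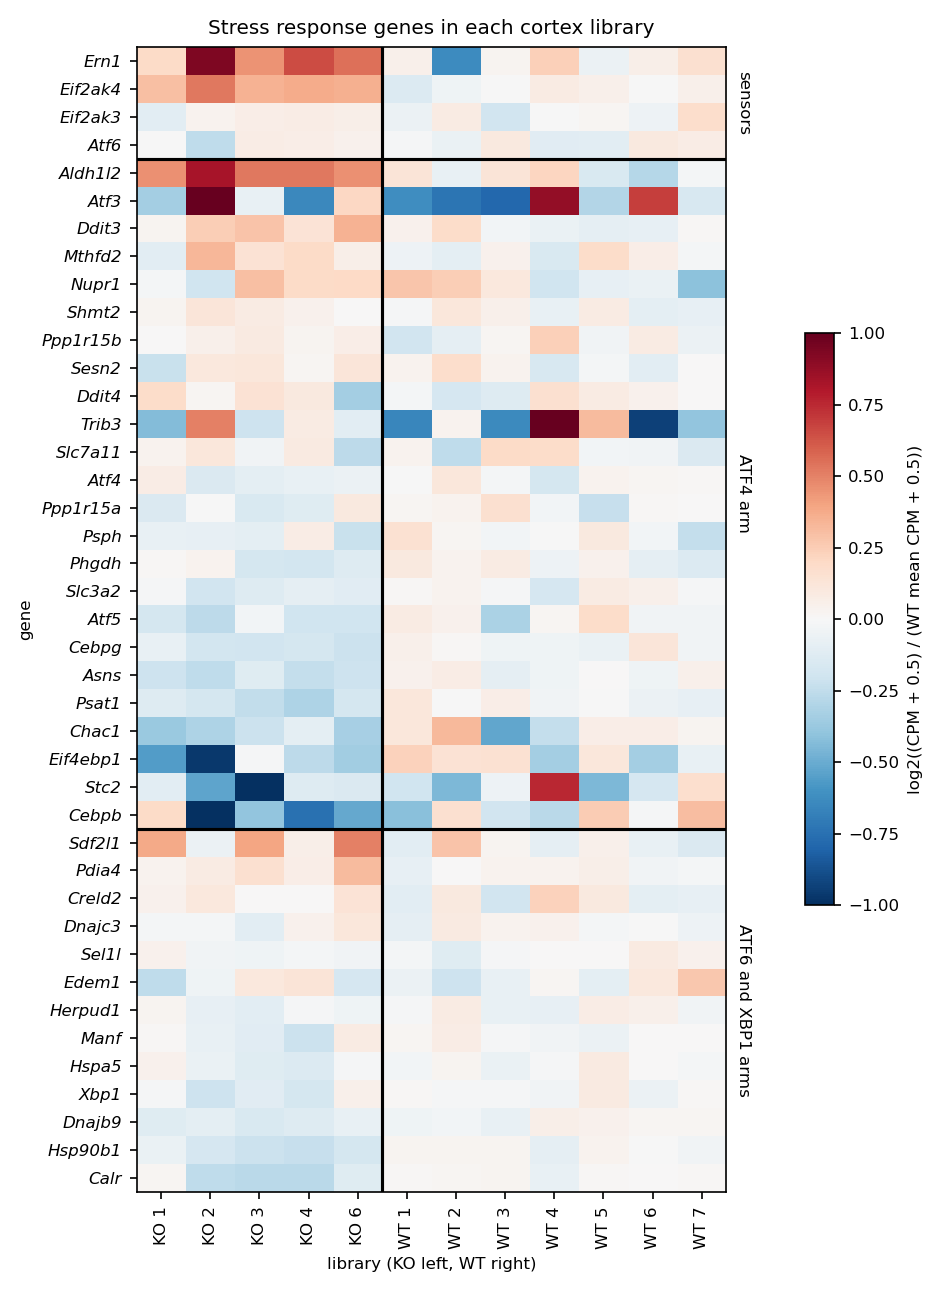
Level of each of the 41 genes (rows, by arm and falling fold change) in each library (columns, 5 KO left and 7 WT right), as log2 of CPM + 0.5 over the WT mean CPM + 0.5, with colours saturating at -1 and 1. Ern1, Eif2ak4 and Aldh1l2 are red across the KO libraries, most other rows are pale, and Atf3 and Trib3 are reddest in KO 2 and WT 4.

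Of the 4 sensors, Eif2ak4 and Ern1 were higher in KO, and Eif2ak3 and Atf6 did not pass. Eif2ak4, which encodes the kinase GCN2 that senses uncharged tRNA, had 47.2, 55.5, 48.7, 49.7 and 49.1 CPM in KO 1, 2, 3, 4 and 6, against a lowest of 34.7, a median of 38.1 and a highest of 40.5 CPM in the 7 WT libraries. Every KO library lay above every WT library, which 5.84% of all tested genes also showed. Its mean was 50.0 ± 3.20 CPM in KO and 38.2 ± 1.93 CPM in WT (SD, n = 5 and 7). The log2 fold change was 0.39 ± 0.05 (SE, edgeR adjusted p = 3.14e-04), in a bin of counting density whose median was 0.12 and where 26.3% of genes were called higher. It was 0.26 ± 0.04 with density offsets (adjusted p = 0.00154) and 0.23 ± 0.04 with offsets for density and length together (0.00247). In its bin of exon length 25.8% of genes were called higher. The gene lies on chromosome 2 at 118388618 to 118475234 of mm10, on the plus strand.

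Ern1, which encodes IRE1 alpha, the ER kinase and ribonuclease that splices Xbp1, had 12.1, 20.5, 14.5, 16.8 and 15.6 CPM in KO 1, 2, 3, 4 and 6, against 6.61, 10.9 and 12.5 CPM as the lowest, median and highest of the WT libraries. Here 4 KO libraries lay above all WT libraries, and KO 1 was inside the WT range. The log2 fold change of 0.61 ± 0.15 (SE, adjusted p = 0.00744) was the largest of any member in that fit, at 15.9 ± 3.12 CPM in KO and 10.5 ± 1.89 CPM in WT (SD). Its bin, the lowest in counting density, had a median of 0.25 with 15.2% of genes called higher, and with density offsets Ern1 was at 0.39 ± 0.12 (adjusted p = 0.0399). In its bin of exon length, the longest, 31.1% of genes were called higher. With offsets for density and length together Ern1 was at 0.33 ± 0.10 (adjusted p = 0.0355). Ern1 is on chromosome 11 at 106394650 to 106487852, on the minus strand.

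Eif2ak3, which encodes PERK, the eIF2 kinase of the ER, had 52.0, 57.4, 58.6, 58.8 and 58.1 CPM in KO 1, 2, 3, 4 and 6, against 49.0, 55.6 and 63.3 CPM as the lowest, median and highest in WT. All KO values lay within the WT range, and the log2 fold change was 0.03 ± 0.06 (SE, edgeR adjusted p = 0.731). Atf6, the ER-anchored transcription factor, had 183, 153, 193, 192 and 189 CPM in KO 1, 2, 3, 4 and 6, against 169, 182 and 196 CPM in WT in the same order. Only KO 2 left the WT range, below it, and the log2 fold change was -0.01 ± 0.06 (adjusted p = 0.955). Neither passed with density offsets, at -0.07 and 0.00 (adjusted p = 0.430 and 0.995).

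**Figure D2:**
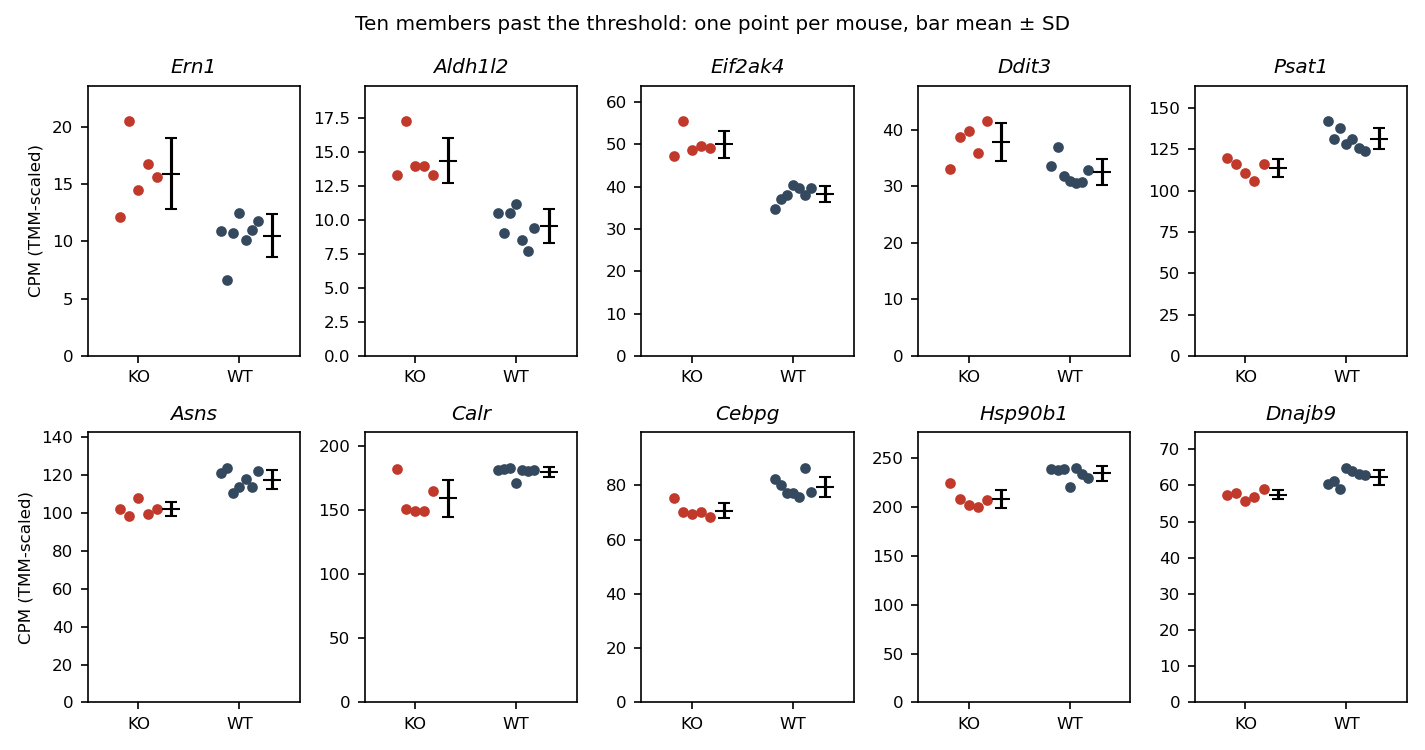
CPM of the 10 members past the threshold, 1 point per mouse in mouse order, with KO left and WT right and the mean ± SD beside each group; the y axes start at 0. Eif2ak4 and Aldh1l2 in KO lie wholly above WT, Asns, Psat1 and Cebpg wholly below, and the other 5 overlap in at least 1 library.

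Within the ATF4 arm 2 genes rose, 3 fell and 18 of the 23 tested did not pass, where 15.3% of all genes were called higher and 14.4% lower. At an unadjusted p under 0.05 in edgeR 2 were higher and 8 lower, against 3174 and 2744 of all 14274 tested genes. The median log2 fold change was -0.062. With density offsets it was -0.065, and 2 rose and 2 fell, where 8.38% and 8.17% of all genes did. Atf4, the transcription factor of the arm, was among those that did not pass: it had 115, 98.8, 102, 104 and 105 CPM in KO 1, 2, 3, 4 and 6, against a lowest of 96.5, a median of 110.2 and a highest of 118 CPM in WT. The groups overlapped fully, and the log2 fold change was -0.06 ± 0.05 (SE, adjusted p = 0.370). Atf4 is densely counted, in the top bin where the median gene was at -0.18 and 67.5% of genes were called lower. With density offsets it was at 0.10 ± 0.04 (adjusted p = 0.0645), and at 0.12 with offsets for density and length together (adjusted p = 0.0199), so its direction depends on the scaling.

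Ddit3, which encodes CHOP, the transcription factor tied to cell death in prolonged ER stress, was higher in KO. It had 33.1, 38.7, 39.8, 35.8 and 41.5 CPM in KO 1, 2, 3, 4 and 6, against 30.6, 31.9 and 37.0 CPM as the lowest, median and highest in WT. KO 2, 3 and 6 lay above all WT libraries, and KO 1 and KO 4 were inside the WT range, which WT 2 topped. The log2 fold change was 0.22 ± 0.07 (SE, adjusted p = 0.0237) with 37.8 ± 3.32 CPM in KO and 32.5 ± 2.27 CPM in WT (SD). In its bin of counting density only 2.53% of genes were called higher and the median was -0.09, and with density offsets Ddit3 was at 0.30 ± 0.07 (adjusted p = 0.0101). The call was lost without KO 3 or KO 6, where the highest adjusted p was 0.0680, without KO 2 and WT 4 together (0.0762) and with DESeq2 (0.0663). Ddit3 shares 68 exonic bases on chromosome 10 with Mars on the opposite strand, which was at 0.09 (adjusted p = 0.117).

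Atf3, an early transcription factor of stress and of neuronal activity, was rare and uneven. It had 1.64, 5.91, 2.07, 1.23 and 2.63 CPM in KO 1, 2, 3, 4 and 6, against 1.07, 1.71 and 4.48 CPM as the lowest, median and highest in WT. Its highest values were in KO 2 and WT 4, 1 library of each genotype, and the log2 fold change was 0.29 ± 0.43 (SE, adjusted p = 0.646). The activity-regulated genes, a set it also belongs to by function, summed to 1265 to 1511 CPM in KO and 1376 to 1658 CPM in WT. Of these 14 genes 6 were called lower, where 14.4% of all tested genes were. With density offsets 6 were lower and 1 higher, where 8.17% and 8.38% of all genes were. Trib3, a pseudokinase that ATF4 and CHOP raise, had 4 to 13 counts in KO and 2 to 18 in WT and was too rare to be tested. Trib3 too was highest in KO 2 (2.02 CPM) and WT 4 (3.36 CPM) within each genotype.

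Of the other C/EBP and ATF factors in the arm, 1 fell. Cebpg, whose protein pairs with ATF4 on the element shown above, had 75.3, 70.0, 69.5, 70.2 and 68.3 CPM in KO 1, 2, 3, 4 and 6, against 75.7, 77.4 and 86.5 CPM as the lowest, median and highest in WT. Every KO library was below every WT library, which 4.80% of all tested genes also showed, though KO 1 came close. The log2 fold change was -0.17 ± 0.04 (SE, adjusted p = 0.00872) where the bin median was 0.06 and 5.34% of genes were called lower. With density offsets it was -0.23 ± 0.04 (adjusted p = 0.00380), and Cebpg was the 1 lower member that passed in both fits. Cebpb averaged 6.20 ± 2.66 CPM in KO and 8.88 ± 1.79 CPM in WT (SD), and Atf5 32.2 ± 2.04 and 36.3 ± 3.74 CPM in the same order. Neither passed, at log2 fold changes of -0.54 ± 0.23 and -0.17 ± 0.07 (adjusted p = 0.0939 and 0.0937). Cebpb was called lower without KO 1 (adjusted p = 0.0148) and Atf5 without WT 3 (0.0193). Cebpb shares 312 exonic bases with Tmem189 on the opposite strand, which had 280 to 416 counts and was at -0.02 (edgeR adjusted p = 0.791). The strand setting of the counting is not given, so reads of Tmem189 may be counted for Cebpb.

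Among genes of amino acid synthesis, Asns and Psat1 fell in KO. Asns, asparagine synthetase, had 102, 98.6, 108, 99.8 and 102 CPM in KO 1, 2, 3, 4 and 6, against 110.5, 118 and 124 CPM as the lowest, median and highest in WT. Psat1, the aminotransferase of serine synthesis, had 119.9, 116, 110.5, 106 and 116 CPM in KO 1, 2, 3, 4 and 6, against 124, 131 and 142 CPM in WT in the same order. For both genes no KO library reached the lowest WT library, which 4.80% of all tested genes also showed. The log2 fold changes were -0.20 ± 0.04 and -0.21 ± 0.04 (SE, adjusted p = 0.00219 and 0.00282), in bins where 67.5% and 30.9% of genes were called lower. With density offsets they were -0.06 and -0.11 and did not pass (adjusted p = 0.376 and 0.0538). With offsets for density and length together Psat1 passed as lower, at -0.12 (edgeR adjusted p = 0.0380). Asns did not pass in that fit, at -0.05 (0.410). The other serine enzymes did not pass: Phgdh, which commits carbon to serine, was at -0.09 ± 0.06 and Psph, the phosphatase of the last step, at -0.08 ± 0.07. Psph shares 452 exonic bases with Cct6a on the opposite strand, which had 587 to 759 counts and was at -0.22 (edgeR adjusted p = 0.00135). The strand setting of the counting is not given, so reads of Cct6a may be counted for Psph.

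Astrocytes are a main site of serine synthesis in the brain, and their markers leaned the same way, as did those of other cell types. The 12 astrocyte markers summed to 2766 to 3243 CPM in KO and 2989.8 to 3573 CPM in WT. Of these 6 were called lower (14.4% of all genes), and 2 with density offsets (8.17%), where their median was -0.018. Of neuronal, microglial and oligodendrocyte markers 8 of 12, 7 of 12 and 3 of 10 were called lower, and of endothelial and mural markers 4 of 10 higher. The part of astrocytes in the values of Psat1 was not tested. In bulk tissue fewer cells of a type and less RNA per cell cannot be told apart.

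Of the 3 mitochondrial enzymes of folate-dependent one-carbon metabolism, which ATF4 also raises, 1 rose. Aldh1l2, a mitochondrial formyltetrahydrofolate dehydrogenase, had 13.3, 17.3, 14.0, 14.0 and 13.3 CPM in KO 1, 2, 3, 4 and 6, against 7.74, 9.41 and 11.2 CPM as the lowest, median and highest in WT. Every KO library lay above every WT library, which 5.84% of all tested genes also showed, and KO 2 stood above the other KO libraries. The log2 fold change was 0.59 ± 0.11 (SE, adjusted p = 0.00179), and 0.38 ± 0.10 with density offsets (adjusted p = 0.0176). Aldh1l2 is in the lowest bin of counting density, whose median was 0.25 and where 15.2% of genes were called higher. In its bin of exon length 25.8% were called higher, and with offsets for density and length together it was at 0.33 ± 0.10 (adjusted p = 0.0332). Aldh1l2 shares 1056 exonic bases on chromosome 10 with D10Wsu102e on the opposite strand, and the strand setting of the counting is not given, so reads of that gene may be counted for it. D10Wsu102e had 199 to 363 counts and a log2 fold change of 0.13 (adjusted p = 0.0778). Mthfd2 and Shmt2, the other mitochondrial folate enzymes in the list, did not pass at 0.14 ± 0.09 and 0.06 ± 0.05 (adjusted p = 0.270 and 0.470).

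The remaining genes of the ATF4 arm did not pass with TMM factors alone over all 12 libraries. The transporter subunits Slc7a11 (cystine) and Slc3a2 (its heavy chain) averaged 98.3 ± 9.78 and 109 ± 5.03 CPM in KO, against 98.9 ± 11.1 and 118 ± 6.24 CPM in WT (SD). Slc3a2 was called lower in edgeR without WT 4 (adjusted p = 0.00919), without KO 1 (0.0356), without KO 2 and WT 4 together (0.0210) and with DESeq2 size factors (0.0441). The phosphatase subunits that reverse eIF2 phosphorylation, the inducible Ppp1r15a and the constitutive Ppp1r15b, were at -0.06 ± 0.07 and 0.05 ± 0.06. Sesn2 and Ddit4, brakes on the growth kinase mTORC1, were at 0.04 ± 0.08 and 0.03 ± 0.08, and the stress-induced Nupr1 at 0.11 ± 0.13. Chac1, which degrades glutathione, averaged 12.9 ± 1.05 CPM in KO and 15.5 ± 2.86 CPM in WT (log2 fold change -0.27 ± 0.13, adjusted p = 0.120). Chac1 was called lower without WT 3 (adjusted p = 0.0314). The secreted Stc2 reached at most 4.11 CPM in any library (-0.48 ± 0.30). Eif4ebp1, a repressor of cap-dependent translation, averaged 5.56 ± 1.42 CPM in KO and 7.47 ± 1.26 CPM in WT. It did not pass at -0.42 ± 0.18 (adjusted p = 0.0900) but did with density offsets, at -0.60 ± 0.19 (adjusted p = 0.0434). It also passed as lower without KO 3 (adjusted p = 0.0438) and without WT 4 (0.0470).

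**Figure D3:**
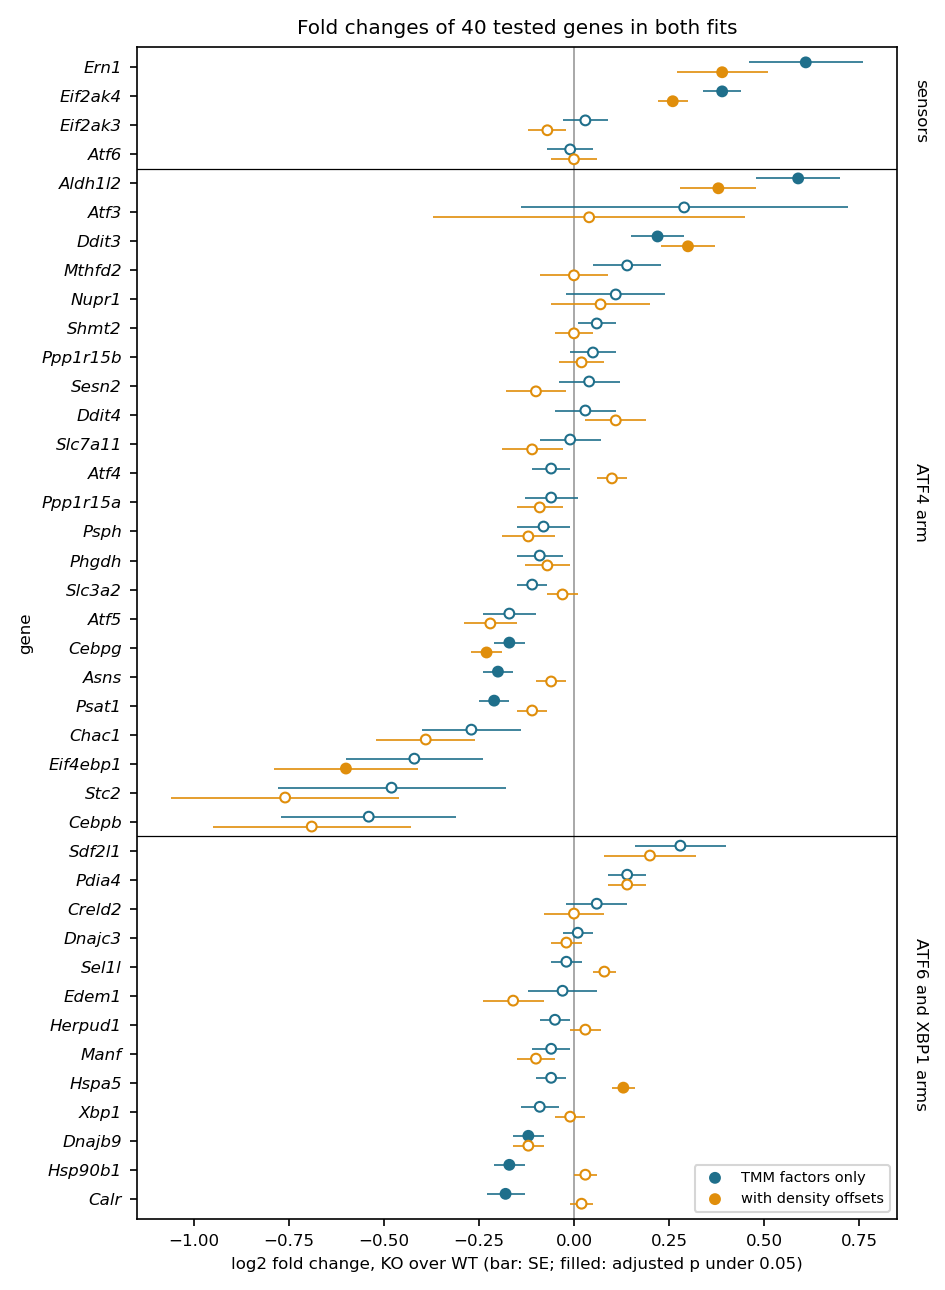
Log2 fold change, KO over WT, with its SE for the 40 tested members by arm, with TMM factors only (blue) and with density offsets (orange); filled points have an adjusted p under 0.05. Ern1, Eif2ak4, Aldh1l2, Ddit3 and Cebpg are filled in both fits, while Hsp90b1 and Calr are at -0.17 and -0.18 with TMM factors and at 0.03 and 0.02 with density offsets.

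In the ATF6 and XBP1 arms no gene rose and 3 of 13 fell, with edgeR. DESeq2 and limma-voom also called none higher, and 2 were higher at an unadjusted p under 0.05 in edgeR. Across all tested genes 15.3% were called higher and 14.4% lower. The 3 falls were in chaperones and co-chaperones. With density offsets none of the 3 passed, although Dnajb9 kept its fold change, and Hspa5 was called higher (1 of 13 higher and 0 lower, with 8.38% and 8.17% of all genes). Median log2 fold changes were -0.046 and, with density offsets, 0.021.

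Hspa5, which encodes BiP, the main ER chaperone and the usual readout of ATF6 activity, had 193, 179, 172, 169.7 and 185 CPM in KO 1, 2, 3, 4 and 6, against 179, 185 and 199 CPM as the lowest, median and highest in WT. KO 2, 3 and 4 lay below the WT range, KO 2 only just, and KO 1 and KO 6 within it. The log2 fold change was -0.06 ± 0.04 (SE, adjusted p = 0.281) and turned to 0.13 ± 0.03 with density offsets (adjusted p = 0.0252). Its direction therefore depends on the scaling. Xbp1, the transcription factor that IRE1 activates, had 84.3, 73.7, 78.5, 75.2 and 88.4 CPM in KO 1, 2, 3, 4 and 6, against 81.5, 84.6 and 90.5 CPM in WT in the same order. KO 2, 3 and 4 again lay below the WT range, and the log2 fold change was -0.09 ± 0.05 (adjusted p = 0.176), or -0.01 with density offsets.

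Hsp90b1, the ER member of the HSP90 family, had 224, 208, 202, 199.7 and 207 CPM in KO 1, 2, 3, 4 and 6, against 219.8, 238 and 240.0 CPM as the lowest, median and highest in WT. Calr, the lectin chaperone calreticulin, had 182, 151, 149, 149 and 165 CPM in KO 1, 2, 3, 4 and 6, against 171, 181 and 183 CPM in WT. In both genes KO 1, the shallowest KO library, lay within the WT range and the other 4 below it. The log2 fold changes of -0.17 ± 0.04 and -0.18 ± 0.05 (SE, adjusted p = 0.00425 and 0.0134) are close to the median of their bin, -0.18, in which 67.5% of genes were called lower. With density offsets they were 0.03 ± 0.03 and 0.02 ± 0.03 (adjusted p = 0.460 and 0.667). Hsp90b1 also shares 415 exonic bases with the pseudogene 1810014B01Rik on the opposite strand, at 35 to 64 counts.

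Dnajb9, a co-chaperone of BiP that restrains IRE1, had 57.3, 58.0, 55.8, 56.8 and 59.1 CPM in KO 1, 2, 3, 4 and 6, against 59.1, 62.9 and 64.9 CPM as the lowest, median and highest in WT. The KO libraries sat at or below the bottom of the WT range, a log2 fold change of -0.12 ± 0.04 (SE, adjusted p = 0.0400). The size was the same with density offsets (-0.12 ± 0.04, adjusted p = 0.0658). In its bin of counting density 9.63% of genes were called lower. Its call passed in 6 of the 12 fits that each left out 1 library, with a highest adjusted p of 0.0958.

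The degradation factors and the remaining folding genes of the ER did not pass. Sel1l, the scaffold of the ER ubiquitin ligase, averaged 259.8 ± 6.36 CPM in KO and 262 ± 11.7 CPM in WT (SD), and Herpud1 of the same complex 72.2 ± 2.66 CPM in KO and 74.5 ± 3.61 CPM in WT. Edem1, which hands misfolded glycoproteins to degradation, and Dnajc3, an inhibitor of PERK, were at -0.03 ± 0.09 and 0.01 ± 0.04. The secreted or ER-resident Manf and Creld2 were at -0.06 ± 0.05 and 0.06 ± 0.08. The highest fold changes of the arms were those of Sdf2l1, part of the BiP chaperone cycle (0.28 ± 0.12, adjusted p = 0.0837), and the disulfide isomerase Pdia4 (0.14 ± 0.05, adjusted p = 0.0580). Sdf2l1 passed without KO 2 (adjusted p = 0.0298), without WT 2 (0.0406) and without KO 2 and WT 4 together (0.0438), and Pdia4 without KO 1 (0.0345). Pdia4 was above every WT library in 4 of 5 KO libraries, most in KO 6 with 67.7 CPM against a WT maximum of 56.5 CPM.

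Members that hold the elements shown at the start did not stand together above WT. With TMM factors alone, Hsp90b1 and Calr of the 5 genes with an ERSE were called lower, in a density bin where 67.5% of genes were. Hspa5, Dnajc3 and Creld2 lay between -0.06 and 0.06, as did Herpud1 with its ERSE-II at -0.05. With density offsets Hspa5 was called higher (0.13, edgeR adjusted p = 0.0252). Hsp90b1, Calr, Dnajc3, Creld2 and Herpud1 were then at 0.03, 0.02, -0.02, -0.00 and 0.03 and did not pass. Of the 5 genes shown with a match to the ATF4 arm's element, Asns, in the same density bin as Calr, was lower with TMM factors alone. Slc7a11, Chac1, Atf3 and Nupr1 did not pass, at -0.01, -0.27, 0.29 and 0.11. With density offsets none of the 5 passed, and Asns was at -0.06 (adjusted p = 0.376). These are counts of members, with no test of the element.

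**Figure D4:**
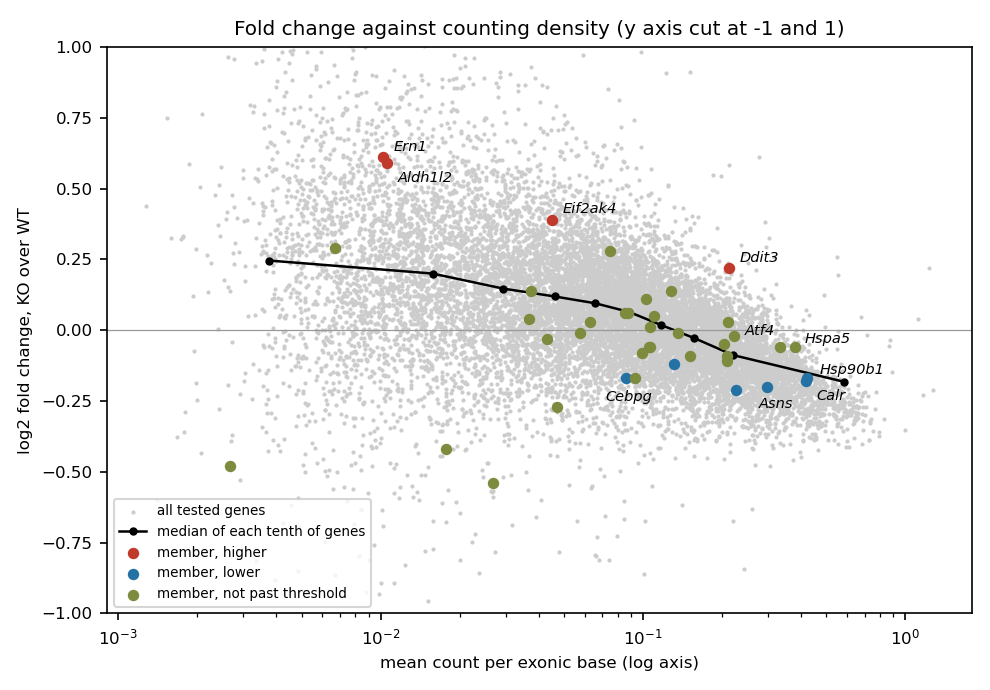
Log2 fold change, KO over WT, against mean count per exonic base (log axis) for all tested genes (grey), the median of each of 10 equal bins (black line) and the 40 tested members (coloured); the y axis is cut at -1 and 1. Ddit3 lies above and Cebpg below the medians of their bins (-0.09 and 0.06), whereas Hsp90b1 and Calr lie near the line.

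Members spanned a wide range of levels per length. On the scale of CPM per kilobase of exon, Hsp90b1 was at 73.6 ± 3.29 in KO and 82.9 ± 2.64 in WT, Calr at 72.9 ± 6.64 and 82.4 ± 1.87, Hspa5 at 68.7 ± 3.62 and 71.5 ± 2.46, and Atf4 at 60.8 ± 3.61 and 63.4 ± 3.71 (SD). In WT the first 2 differ by less than their SD. At the other end Ern1 was at 2.29 ± 0.449 in KO and 1.51 ± 0.272 in WT, Atf3 at 1.36 ± 0.943 and 1.11 ± 0.701, Trib3 at 0.633 ± 0.228 and 0.631 ± 0.503, and Stc2 at 0.414 ± 0.143 and 0.567 ± 0.229.

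The level of each arm was also averaged per library, as log2 CPM + 0.5 relative to each gene's mean over the 12 libraries. For the ATF4 arm it was -0.028, -0.034, -0.024, -0.043 and -0.035 in KO 1, 2, 3, 4 and 6, against a lowest of -0.012 (WT 3) and a highest of 0.055 (WT 4) in WT. The averages did not overlap, with means of -0.033 ± 0.007 in KO and 0.024 ± 0.023 in WT (SD), but the medians over the same 23 members did overlap, and no test is given for such a score. With density offsets the means were -0.067 ± 0.027 and 0.048 ± 0.027, again with only the medians overlapping. Over all tested genes the average was 0.032 ± 0.022 in KO and -0.023 ± 0.017 in WT with TMM factors, with overlapping libraries. For the ATF6 and XBP1 arms the means were -0.014 ± 0.051 in KO and 0.010 ± 0.024 in WT, and for the sensors 0.143 ± 0.084 and -0.102 ± 0.087, both with overlapping libraries. Among sensors the difference comes from Ern1 and Eif2ak4, since Eif2ak3 and Atf6 were level.

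Other genes of the pathway, taken from lists of known components, also went both ways. Of 109 tested, 17 rose and 22 fell, where 15.3% and 14.4% of all genes did, and 12 and 9 with density offsets, where 8.38% and 8.17% did. Among 14 genes of eIF2, its other kinases and its exchange factor, 2 rose and 4 fell, and 1 and 3 with density offsets. Eif2ak2, the kinase PKR that senses double-stranded RNA, was at 15.6 ± 2.75 CPM in KO and 10.9 ± 1.71 CPM in WT (log2 fold change 0.52 ± 0.13 SE, adjusted p = 0.00887), but at 0.33 with density offsets (adjusted p = 0.0675). Gcn1l1, the ribosome-bound partner that GCN2 needs, rose by 0.22 ± 0.05 (adjusted p = 0.00459), and was at 0.17 with density offsets (0.0294). With offsets for density and length together Gcn1l1 was at 0.09 and did not pass (adjusted p = 0.164). The eIF2 subunit genes Eif2s3x and Eif2s2 fell, both at -0.17 ± 0.04 (adjusted p = 0.00439 and 0.00648), and Eif2s2 kept its call with density offsets (-0.14, adjusted p = 0.0266) while Eif2s3x did not (-0.08, 0.130).

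Of 33 further genes reported as ATF4 targets 7 rose and 5 fell, where 15.3% and 14.4% of all genes did. The split depended on the setting. With density offsets 4 were higher and 0 lower (8.38% and 8.17% of all genes). With DESeq2 size factors these were 2 and 7 (13.3% and 16.8% of all genes), and without KO 2 they were 1 and 5 (12.5% and 11.8%). The arginine and lysine transporter Slc7a1 was at 109.6 ± 5.18 CPM in KO and 91.8 ± 6.81 CPM in WT (0.26 ± 0.05, edgeR adjusted p = 0.00253). It was at 0.18 with density offsets (adjusted p = 0.0332), but at 0.11 with offsets for density and length together, where it did not pass (0.194). The autophagy genes Sqstm1 and Map1lc3b and the glycyl-tRNA synthetase gene Gars fell by 0.25, 0.21 and 0.23 on the log2 scale (adjusted p = 0.00238, 0.00406 and 0.00578). With density offsets these 3 were at -0.05, -0.06 and -0.10 and did not pass (adjusted p = 0.131, 0.223 and 0.103). With offsets for density and length together Sqstm1 passed as lower, at -0.07 (edgeR adjusted p = 0.0463). Map1lc3b and Gars did not pass in that fit, at -0.06 and -0.10 (0.156 and 0.0698).

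Of 47 further ER folding and quality control genes 6 rose and 13 fell, where 15.3% and 14.4% of all genes did. With density offsets 7 rose and 6 fell, where 8.38% and 8.17% of all genes did. Uggt1, which re-tags glycoproteins that have not folded, was at 136 ± 6.68 CPM in KO and 112 ± 6.64 CPM in WT (0.29 ± 0.05, edgeR adjusted p = 7.65e-04). It was at 0.21 with density offsets (adjusted p = 0.00317), but at 0.12 with offsets for density and length together, where it did not pass (0.109). Sec24d, a coat component of vesicles leaving the ER, rose by 0.42 ± 0.09 (adjusted p = 0.00293; 0.29 and 0.0169 with density offsets). Selk, a selenoprotein of the ER membrane, fell by 0.29 on the log2 scale (adjusted p = 0.00173), and was at -0.24 with density offsets (0.00442). With offsets for density and length together Sec24d and Selk kept their calls, at 0.28 and -0.20 (adjusted p = 0.0172 and 0.00527). Tmbim6, an ER membrane protein that restrains cell death, was at -0.20 ± 0.04 (adjusted p = 0.00289) but at -0.02 with density offsets (0.707).

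Among 15 tested sensor and processing factors outside the member list 2 rose and none fell with edgeR, DESeq2 or limma-voom, and no gene was lower at an unadjusted p under 0.05. Across all tested genes 15.3% were called higher and 14.4% lower in edgeR. Creb3l2, an ER-anchored relative of ATF6, was at 15.7 ± 1.76 CPM in KO and 10.4 ± 2.56 CPM in WT (0.58 ± 0.15, adjusted p = 0.00839), and Bak1, a cell death effector that also binds IRE1, at 26.7 ± 2.74 and 21.6 ± 2.85 CPM (0.30 ± 0.10, adjusted p = 0.0276). Neither passed with density offsets, at 0.38 and 0.19 (adjusted p = 0.0801 and 0.215).

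Markers of the cell types in the tissue moved beside these genes. Across all tested genes 15.3% were called higher and 14.4% lower, and 8.38% and 8.17% with density offsets. The 12 neuronal markers summed to 2967 to 3701 CPM in KO and 3517 to 3885 CPM in WT, with 8 lower, and 0 lower with density offsets (2 at an unadjusted p under 0.05). The 12 microglial markers summed to 622 to 645 CPM in KO and 689 to 861 CPM in WT, with 7 lower, and 5 with density offsets. The 10 oligodendrocyte markers summed to 1597 to 1868 CPM in KO and 1755 to 2023 CPM in WT, with 3 lower, and 0 with density offsets (1 at an unadjusted p under 0.05). The 10 endothelial and mural markers summed to 481 to 548 CPM in KO and 442 to 534 CPM in WT, with 4 higher, and 0 with density offsets (1 at an unadjusted p under 0.05). No marker of these 4 types was at 0 in any library, and their part in the members' values was not tested. The 7 choroid plexus markers summed to 15.5 to 101 CPM in KO and 11.1 to 115 CPM in WT, with Otx2 at 0 in at least 1 library.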

How the data were processed

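Frontal cortex RNA of 12 mice (Trizol, then a column) was sequenced as Illumina libraries, per the labels' protocols. The deposited table holds raw whole-number counts for each RefSeq gene in each library, with no scaling or pooling, per the file headers and the values. STAR and mm10 are named, per the submitters' processing notes. The counter, its strand setting and any gene filter: not given in the sources used here.

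The test was edgeR 4.0.16 (R 4.3.3): TMM factors, filterByExpr, a quasi-likelihood fit on genotype alone over all libraries, and Benjamini-Hochberg adjustment over 14274 genes, with a threshold of 0.05. An SE is the size of the log2 fold change over the root of its F statistic. CPM uses TMM-scaled sizes. Exonic lengths came from the GENCODE M21 exons of paired RefSeq transcripts (14228 tested genes). Density offsets are loess fits (span 0.3) of each library's log2 deviation on log2 counts per exonic base, and joint offsets with length used mgcv 1.9.3. DESeq2 1.42.0 and limma 3.58.1 (voom) were alternatives, as were other filters, covariates and left-out libraries. On counts simulated for this comparison (14210 genes) the fit called 94 of 99 genes changed by a log2 fold change of 1, 68 of 100 changed by 0.5 and 8 of 14011 unchanged ones. The simulated counts held no trend with density or length, so they do not measure false calls from such a trend. No gene was given a change smaller than 0.5, so recovery of smaller changes is not known. The titles name separate mice, and the labels give no batch, litter or date.

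The members and lists were chosen with earlier results of these data known. Values in every library are given for members past the threshold, the sensors, Atf4, Atf3, Ddit3, Xbp1 and Hspa5, and up to 4 called genes of each further list are named by smallest p.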

Additional observations from a re-analysis of the deposited data

Results flagged for a closer look

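In 84 groups checked (each member and Upf3b, in KO and in WT) 10 held a library far from the others of its genotype; chance alone flags about 1 in 20 groups. KO 2 was apart for Aldh1l2, at 17.3 CPM against 13.3 to 14.0 in the other KO libraries, and for Atf6, at 153 CPM against 183 to 193. KO 1 was apart for Cebpg (75.3 CPM against 68.3 to 70.2), Sel1l (271 against 255 to 259) and Eif2ak3 (52.0 against 57.4 to 58.8). WT 4 was apart for Slc3a2 (105 CPM against 117 to 125 in the other WT libraries), Calr (171 against 180.3 to 183) and Stc2 (4.11 against 1.50 to 2.57). WT 2 was apart for Ern1 (6.61 CPM against 10.1 to 12.5) and Sdf2l1 (17.2 against 12.6 to 14.5). Aldh1l2, Cebpg, Calr and Ern1 passed in all 12 fits that each left out 1 library, these libraries included.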

How the results depend on the processing

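For the 16 members given in every library (10 past the threshold, and the other sensors, Atf4, Atf3, Xbp1 and Hspa5), 102 values kept their direction and side of the threshold at the other settings, 22 kept only the direction and 19 turned. With each library left out in turn these were 177, 8 and 5. With density offsets, 2 members were lower, 1 member of the ATF6 and XBP1 arms was higher and 0 lower, 9 other pathway genes were lower, and 1193 genes were higher and 1162 lower. With density and length offsets together, chosen after seeing the data, 3 members were lower, 1 member of the ATF6 and XBP1 arms was higher and 0 lower, other pathway genes were 10 higher and 9 lower, and all genes 1122 higher and 1226 lower. With the library total as a covariate no member or other pathway gene passed in edgeR (0 in either direction and in every arm; 2 members higher and 1 lower at an unadjusted p under 0.05; density offsets gave 5 and 2), with 84 genes higher and 11 lower. The cause was not tested.

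The median log2 fold change was -0.007 over the members with density offsets and 0.006 with the library total. For the ATF6 and XBP1 arms it was 0.021 with density offsets, 0.017 with density and length offsets and 0.014 with the library total, and for the sensors 0.085 with density and length offsets. In the order density offsets, density and length offsets, library total, log2 fold changes turned, among these members, for Atf4 (0.10, 0.12, 0.09), Hspa5 (0.13, 0.11, 0.04), Calr (0.02, 0.02, 0.01) and Eif2ak3 (-0.07, -0.09, -0.09). Hsp90b1 turned with the first pair (0.03, 0.02), Xbp1 and Atf3 with the library total (0.01 and -0.51), and Atf6 with density offsets (8.1e-04), the library total (0.04) and without KO 2 and WT 4 (0.02).

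DESeq2's test called 1 member of the ATF4 arm and 9 other pathway genes higher (11.3% of all genes). Its size factors in edgeR gave 11 higher other pathway genes (13.3% of all genes). Without KO 2 and WT 4 together 1 member of the ATF4 arm and 1 of the ATF6 and XBP1 arms were higher (15.2% of all genes). Leaving out 1 library gave 1 to 2 higher and 3 to 5 lower members of the ATF4 arm, 0 to 1 higher members of the ATF6 and XBP1 arms, and 8 to 16 higher other pathway genes. Ddit3 lost its call without KO 3 or KO 6, and Dnajb9 without KO 2, 3 or 4 or WT 5, 6 or 7. Over these fits Atf3 ranged from -0.23 (without KO 2) to 0.48, and Atf6 from -0.04 to 0.05 (without KO 2), with 0.01 without WT 3, 6 or 7.

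Same-numbered KO and WT libraries had correlations of deviations from 0.142 to -0.376, and 0 of 5 KO libraries correlated best with their own number, so the numbers are not taken to pair mice. With the replicate block on the 10 libraries with a shared number, 2 members were higher (1 of the ATF4 arm, 1 sensor) and 4 lower (1 of the ATF6 and XBP1 arms), the ATF4 arm's median was -0.096, 8 other pathway genes were higher, and all genes were 1133 higher and 1180 lower. The same 10 libraries without the block gave 3 higher and 5 lower members, and 1586 higher and 1539 lower among all genes. At 4684039 to 6617759 counts per library, Trib3 could not be tested and Atf3 and Stc2 rest on 5 to 38 counts.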
